A study of Mus musculus with 12 samples.

Results

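The genes described here are 45 protein-coding genes of mitosis and cytokinesis, the division of the duplicated chromosomes and then of the cell body. They were chosen by symbol from the deposited gene count table, and all 45 were among its 55335 rows and among the 14935 genes with enough counts to be tested. Polyadenylated RNA was sequenced from the PYMT-R221A line, mouse mammary tumour cells grown in culture, in 4 groups of 3 libraries that the labels name as biological replicates 1, 2 and 3. The groups were cells given 40 µM KCC-07, which the series title places as a small molecule inhibitor of the MBD2 pathway, their control, cells given siRNA against Mbd2 (siMBD2), and cells given a scramble siRNA. The labels name no vehicle and no duration, and all groups share 1 cell line, so the results hold for that line. MBD2 is a protein that binds methylated DNA, and the comparisons ask which genes follow the compound and which follow loss of Mbd2 RNA.

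Cells enter mitosis when cyclin A and cyclin B bind and activate the kinase CDK1, which CDC25 phosphatases switch on by removing inhibitory phosphates. Polo-like and Aurora kinases then build the spindle, kinetochores couple the chromosomes to it, and the spindle checkpoint holds back the anaphase-promoting complex (APC/C) until every chromosome is attached. The APC/C then marks securin and the cyclins for destruction, separase opens the cohesin rings, and the central spindle directs a furrow of actin and myosin that cuts the cell. The RNAs of most of these genes peak together in late G2 and mitosis, through promoters with CCAAT boxes and a cell cycle genes homology region (CHR), the binding sites of NF-Y and of the MuvB complex with B-MYB and FOXM1. In a bulk sample a lower level of such a transcript can come from fewer cells in G2 and mitosis or from less RNA per cell, and these cannot be told apart.

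Counts summed to 25.8 to 34.0 M per library. The 45 genes took 0.723%, 0.699% and 0.678% of the counts in KCC-07 libraries 1, 2 and 3, against 0.744%, 0.737% and 0.756% in control. They took 0.650%, 0.645% and 0.570% in siMBD2 libraries, against 0.670%, 0.669% and 0.631% in scramble. The siRNA lowered its target: Mbd2 was at 35.7, 34.7 and 30.6 CPM (read counts scaled to a common library total, with TMM factors) in siMBD2, against 75.8, 83.2 and 72.5 CPM in scramble, a log2 fold change of -1.20 ± 0.09 (SE, edgeR adjusted p = 0.000197). With KCC-07 it was at 75.1, 72.8 and 77.1 CPM, against 72.9, 75.9 and 76.5 CPM in control. The libraries of replicate 3 stood apart in all 4 groups, with 2.70% to 3.90% of counts from mitochondrially encoded genes, against 1.45% to 2.32% in replicates 1 and 2. Of 8 epithelial marker genes, 7 were above 1 CPM (for markers, without TMM factors) in all 12 libraries. So were 3 of 8 stromal markers, Pdgfra, Col1a1 and Pdgfrb. None of the 8 immune or 5 endothelial markers was, but the highest library reached 7.72 CPM for Csf1r and 6.58 CPM for Pecam1. Library values below are CPM in the order of replicates 1, 2 and 3, and log2 fold changes carry their standard error.

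The promoters of these genes are shown first because genes of different mitotic functions are known to share elements there. Of the 45 genes, 37 had an entry in the RefSeq promoter table of GRCm38.p6, which holds 250 bases before and 50 bases after the annotated start. A CHR, searched as TTTGAA on either strand, was in the window of 27 genes (73%), against 20.2% of all 27025 genes in that table. A CCAAT box, searched as CCAAT on either strand, was in 28 genes (75.7%), against 41.1%, and 19 genes (51.4%) had more than 1, against 13.3%. Both motifs stood together in 23 genes (62.2%), against 8.97% of all genes. The E2F letters TTTCCCGC and TTTGGCGC, on either strand, were in none of the 37 and in 1.8% of all genes. No motif contains another.

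Stretches from 100 bases before to 30 bases after the start are printed for 6 genes whose RNA changed in a comparison below. Birc5, Pttg1 and Kif2c changed as well and have an entry, but are not printed. The windows of Birc5 and Pttg1 held neither motif, and that of Kif2c held a CHR and no CCAAT box. Capitals mark CHR (TTTGAA, or TTCAAA on the other strand) and CCAAT (or ATTGG). The stretches lie, in GRCm38.p6, at chr9:70421525-70421654 (minus strand) for the cyclin gene Ccnb2, chr7:127042391-127042520 (minus) for the chromosome-arm kinesin gene Kif22, chr5:30666786-30666915 (plus) for the centromeric histone gene Cenpa and chr2:69206184-69206313 (minus) for the kinetochore gene Spc25. Those of Anln, which codes for the furrow protein anillin, and of the centrosome kinase gene Nek2 lie at chr9:22389177-22389306 (minus) and chr1:191821373-191821502 (plus).
Ccnb2: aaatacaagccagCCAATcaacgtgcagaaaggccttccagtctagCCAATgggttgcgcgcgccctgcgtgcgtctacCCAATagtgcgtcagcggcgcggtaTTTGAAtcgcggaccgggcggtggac
Kif22: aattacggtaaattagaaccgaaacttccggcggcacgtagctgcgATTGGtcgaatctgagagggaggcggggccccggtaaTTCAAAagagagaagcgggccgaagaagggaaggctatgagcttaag
Cenpa: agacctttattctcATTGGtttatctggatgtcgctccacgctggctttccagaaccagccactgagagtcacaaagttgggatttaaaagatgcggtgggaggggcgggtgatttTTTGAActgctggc
Spc25: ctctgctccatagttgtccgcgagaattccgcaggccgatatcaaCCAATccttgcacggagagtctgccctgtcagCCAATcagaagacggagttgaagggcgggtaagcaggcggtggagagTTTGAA
Anln: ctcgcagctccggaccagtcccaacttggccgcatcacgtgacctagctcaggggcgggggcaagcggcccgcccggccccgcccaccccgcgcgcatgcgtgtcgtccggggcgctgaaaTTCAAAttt
Nek2: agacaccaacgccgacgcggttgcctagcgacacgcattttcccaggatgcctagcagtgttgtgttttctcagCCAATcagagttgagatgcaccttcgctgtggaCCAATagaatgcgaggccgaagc
In Ccnb2 a CHR began at position 5 after the start, behind 3 CCAAT boxes at -87, -54 and -21, and another CHR was at -167. Kif22 had a CHR at -17 behind a CCAAT box at -54 and another CHR at -215 behind a box at -233, Cenpa a CHR at 17 behind boxes at -109 and -86, and Spc25 a CHR at 25 behind boxes at -55 and -23. Anln had no CCAAT box in its window and 2 CHR matches, at 22 and at 29, of which the second runs past the printed stretch. Nek2 had CCAAT boxes at -26 and 8 and no CHR. The RefSeq start lay within 50 bases of the 5′ end of the gene in GENCODE M21 for 29 of the 37 genes. It lay more than 250 bases inside the gene for 4, the securin gene Pttg1 (270 bases), Kif4 (328), Cdca8 (2394) and Kif2c (3867), whose windows do not reach that end. Over the 39 windows of these 37 genes, 29 of the 38 CHR matches (76.3%) began within 50 bases of the start, against 25.3% of 6737 matches in the whole table. The 27 genes with a CHR had a median log2 fold change of -0.13 for KCC-07 against control (1 higher and 1 lower past the threshold), and the 10 without a match -0.19 (also 1 and 1). The lower gene without a match was Pttg1, whose window does not reach the annotated end, and Ccna2 had no promoter entry. For scramble against control the medians were -0.20 with a CHR (5 lower) and -0.16 without (2 lower). The 2 lower genes without a CHR were Pttg1 and Birc5. The start of Birc5 lay within 50 bases of the annotated end, and its window held neither motif. Among the 5 lower genes with a CHR, Kif2c had its only match at -103, in a window that does not reach the annotated end.

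**Figure D1:**
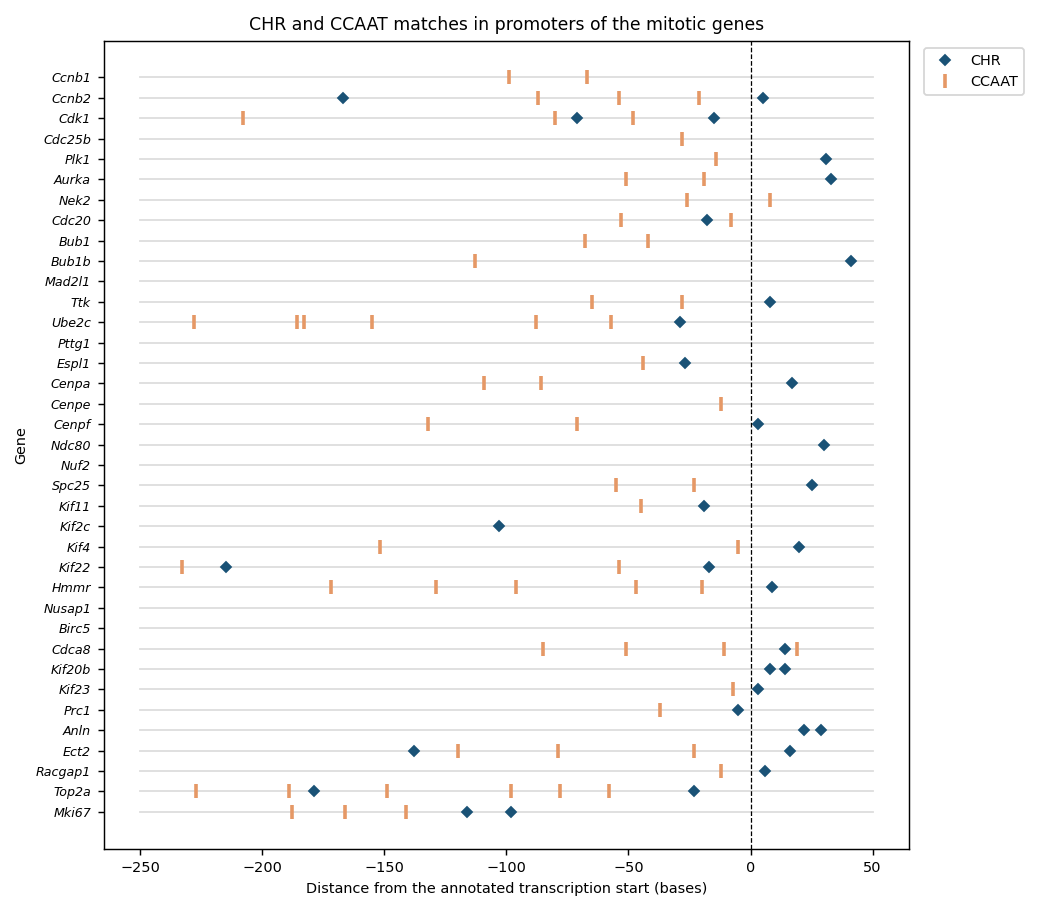
Start positions of CHR (diamonds) and CCAAT (bars) matches in the promoter windows of the 37 mitotic genes with an entry, 1 row per gene; the x axis is the distance in bases from the annotated transcription start, drawn as a dashed line. For a gene with more than 1 annotated start, the window lowest in genome coordinates is drawn. Over all 39 windows, 29 of the 38 CHR matches lie within 50 bases of a start.

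The counting of strands is not given in the sources used here, so reads of genes that overlap on opposite strands cannot be told apart. This touches 13 members: Ccna2 (Exosc9), Cdc25b (Spef1), Cdc25c (Gm3550), Plk1 (Gm44985), Nek2 (Gm38037), Cdc20 (Elovl1), Ube2c (Tnnc2), Kif4 (Pdzd11), Kif22 (Gm31749), Nusap1 (Oip5), Cdca8 (9930104L06Rik), Kif20a (Cdc23) and Prc1 (Rccd1 and 6330403N20Rik). Ccnb1 has near-identical copies (Ccnb1-ps, Gm12856 and Gm8416). On the same strand, Foxm1 shares 241 exonic bases with Tex52 and Gm44596, and Top2a shares 122 with Gm23451. The values of all these genes are uncertain to that extent.

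Per kilobase of annotated exons, control cells held most RNA of cyclin B2 (Ccnb2, mean 99.0 CPM per kb), of survivin (Birc5, 95.3), of cyclin A2 (Ccna2, 81.5), of the APC/C activator Cdc20 (80.6) and of topoisomerase II alpha (Top2a, 72.2). The lowest were Ndc80, which binds the microtubule at the kinetochore, at 9.56 CPM per kb, the checkpoint kinase gene Ttk at 9.84 and the separase gene Espl1 at 9.89. The order depends on the length used: per kilobase of the longest coding transcript Top2a came first, at 125 CPM per kb, before Ccna2 at 112 and Ccnb2 at 99.0. With KCC-07 the mean of Ccna2 was 58.0 CPM per kb of exons and that of Ccnb2 75.8, and in siMBD2 they were 74.1 and 69.8, against 78.1 and 69.3 in scramble. The lowest value of any of the 45 genes in a single library was 30.3 CPM, of Spc24 in KCC-07 replicate 3.

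**Figure D2:**
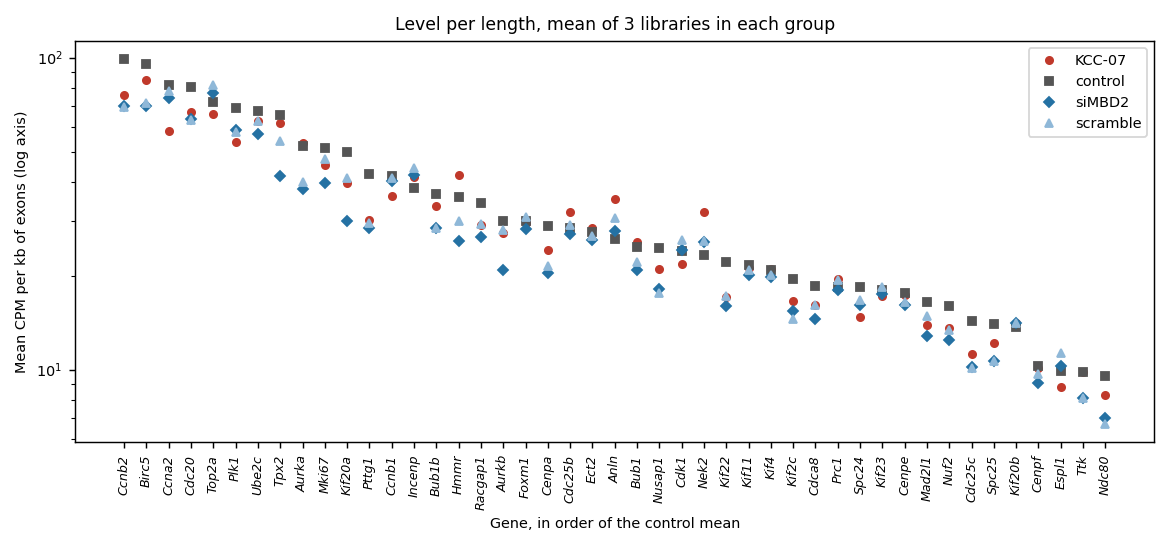
Mean level of each gene in CPM per kilobase of annotated exons (log axis), for KCC-07, control, siMBD2 and scramble (3 libraries each), with genes in the order of the control mean from Ccnb2 (99.0) to Ndc80 (9.56). For most genes the 4 group means lie close together compared with the range between genes.

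With KCC-07 a few mitotic genes moved in each direction. The cyclin gene Ccna2, the securin gene Pttg1 and the kinesin gene Kif22 fell, while Nek2 and Anln rose, none by as much as 2-fold. These were 3 lower and 2 higher of 45 (6.67% and 4.44%), against 2.08% lower and 3.58% higher of the 14935 genes tested, or 5.65% in either direction (edgeR quasi-likelihood test, adjusted p under 0.05). The median log2 fold change of the 45 was -0.14, with 33 below 0, against a median of 0.02 over all genes. In 13 members (28.9%) every KCC-07 library was below every control library, against 10.6% of all genes, and in 4 members (8.89%) every one was above, against 12.3%. With the replicate number as a block, 13 members passed as lower and the same 2 as higher (28.9% and 4.44%), against 9% lower and 12.8% higher of all genes. DESeq2 called 7 as lower and 2 as higher, against 5.28% lower and 7.26% higher of all genes.

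Among the genes of mitotic entry, Ccna2 (chr3:36564865-36572150), whose product activates CDK2 and CDK1 up to prometaphase, had 265, 256 and 190.3 CPM with KCC-07, against 355, 327 and 315 CPM in control. All 3 KCC-07 libraries were below all 3 control libraries, and replicate 3 was the lowest of each group. The log2 fold change was -0.49 ± 0.12 (edgeR adjusted p = 0.0339), a ratio of 0.71. Nek2 (chr1:191821444-191833050), a kinase that separates the centrosomes, moved the other way, with 130.2, 139 and 164 CPM in KCC-07 cells, against 95.9, 119 and 100.1 CPM in control cells. Its groups did not overlap, and it rose by a log2 fold change of 0.46 ± 0.10 (edgeR adjusted p = 0.0254).

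Both cyclin B genes, Cdc25c and Plk1 stood lower without passing. Ccnb2 had 124, 120.2 and 104 CPM with KCC-07, against 172, 157 and 126 CPM in control, and Ccnb1, the main mitotic cyclin, had 154, 154 and 148 CPM, against 184, 178 and 166 CPM. The phosphatase gene Cdc25c had 57.9, 55.7 and 52.3 CPM with KCC-07, against 75.5, 74.0 and 61.7 CPM in control. The polo-like kinase gene Plk1 had 129, 126 and 100.3 CPM with KCC-07, against 147, 156 and 153 CPM in control. In each of these 4 genes no KCC-07 library reached the lowest control library. Their log2 fold changes were -0.39 ± 0.11 for Ccnb2, -0.21 ± 0.07 for Ccnb1, -0.35 ± 0.10 for Cdc25c and -0.36 ± 0.10 for Plk1, with edgeR adjusted p of 0.0612, 0.0884, 0.0556 and 0.0519. With the replicate block all 4 passed, at 0.00738, 0.0391, 0.0110 and 0.0194. Cdk1 itself (log2 fold change -0.13 ± 0.09), Cdc25b (0.17 ± 0.15) and the spindle-pole kinase gene Aurka (0.03 ± 0.11) had groups that overlapped.

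Foxm1, the transcription factor that drives many of these promoters, had 166, 151 and 193 CPM with KCC-07, against 169, 161 and 185 CPM in control. The groups overlapped and the log2 fold change was -0.02 ± 0.09, with a 95% interval of -0.23 to 0.20 (edgeR adjusted p = 0.938).

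Of the 8 checkpoint and anaphase genes, Pttg1 fell and the other 7 did not pass. Pttg1 (chr11:43420250-43426251), securin, which holds separase inactive until anaphase, had 61.8, 64.9 and 54.8 CPM with KCC-07, against 92.8, 88.6 and 73.1 CPM in control. Its highest KCC-07 library lay below its lowest control library, and the log2 fold change was -0.49 ± 0.11 (edgeR adjusted p = 0.0257). Mad2l1, the checkpoint protein that binds CDC20, had 123, 117 and 111 CPM with KCC-07, against 163, 133 and 119 CPM in control, with 1 library of overlap (-0.24 ± 0.11, edgeR adjusted p = 0.181). Cdc20 had 139, 146 and 90.2 CPM with KCC-07, against 153, 163 and 135 CPM in control. Its KCC-07 libraries ran from below the control range to within it (-0.27 ± 0.16). The kinase genes Bub1 (0.05) and Ttk (0.00), the kinase-like checkpoint gene Bub1b (-0.13), the APC/C ubiquitin-conjugating enzyme gene Ube2c (-0.10) and Espl1 (-0.17) also overlapped between groups.

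All 7 centromere and kinetochore genes had a negative log2 fold change, from -0.31 to -0.02, and none passed. Cenpa, the histone variant that marks the centromere, had 141, 126 and 158 CPM with KCC-07, against 172, 161 and 176 CPM in control. Nuf2, a subunit of the NDC80 complex, had 87.0, 88.3 and 83.7 CPM with KCC-07, against 112, 96.5 and 95.8 CPM in control. Both were lower in every KCC-07 library than in any control library, with -0.26 ± 0.09 and -0.23 ± 0.08 (edgeR adjusted p = 0.114 and 0.115; 0.0421 and 0.0474 with the replicate block). The other subunits of that complex were Spc24, with 40.7, 43.0 and 30.3 CPM against 44.8, 54.3 and 42.5 CPM in control, and Spc25, with 40.7, 39.7 and 35.7 CPM against 47.9, 45.03 and 41.4 CPM. Spc25 did not overlap between groups and Spc24 did by 1 library, and with the block Spc24 passed (0.0263) and Spc25 did not (0.0846). Ndc80 (-0.21 ± 0.16) and the outer kinetochore genes Cenpe (-0.02 ± 0.13) and Cenpf (-0.03 ± 0.17) overlapped.

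Among the spindle motors and microtubule factors, Kif22 (chr7:127027729-127042471), a kinesin that pushes chromosome arms outward, had 90.2, 84.8 and 76.1 CPM with KCC-07, against 112, 107 and 107 CPM in control. The groups were apart by more than the spread within either, and the log2 fold change was -0.38 ± 0.09 (edgeR adjusted p = 0.0322). Kif2c, the depolymerase that corrects wrong attachments, had 78.1, 74.3 and 64.7 CPM with KCC-07, against 82.9, 85.7 and 87.4 CPM in control (-0.24 ± 0.09, edgeR adjusted p = 0.131). The spindle assembly gene Nusap1 had 101, 92.5 and 62.3 CPM with KCC-07, against 115, 107 and 77.8 CPM in control. Kif2c did not overlap and Nusap1 did, since replicate 3 was low in both of its groups, and with the block Nusap1 passed (0.0364). Hmmr, whose product binds the spindle pole, was the only motor or factor gene with every KCC-07 library above control, at 234, 223 and 231 CPM against 212, 192 and 179 CPM (0.24 ± 0.11, edgeR adjusted p = 0.188). Kif11, Kif4 and Tpx2 had log2 fold changes of -0.03, 0.02 and -0.09 with overlapping groups.

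None of the 4 genes of the chromosomal passenger complex, the Aurora B kinase with its partners, passed. Cdca8, its borealin subunit, had 91.5, 84.6 and 73.4 CPM with KCC-07, against 99.8, 99.5 and 88.4 CPM in control (-0.21 ± 0.09, edgeR adjusted p = 0.202). Birc5, survivin, had 310.2, 301 and 254 CPM with KCC-07, against 362, 330.2 and 281 CPM in control (-0.17 ± 0.11, edgeR adjusted p = 0.344). Both overlapped between groups, as did the kinase gene Aurkb (-0.13) and the scaffold gene Incenp (0.12).

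The 7 genes of the central spindle and cytokinesis split in direction, with a median of 0.04. Anln (chr9:22332012-22389188), anillin, which ties actin and myosin to the cleavage furrow, had 305, 299 and 357 CPM with KCC-07, against 235, 244 and 233 CPM in control. Every KCC-07 library was well above every control library, and Anln rose by 0.43 ± 0.09 (edgeR adjusted p = 0.0179), a ratio of 1.35. Kif20a, the kinesin that carries Aurora B to the midzone, had 187, 184 and 145 CPM with KCC-07, against 220.6, 214 and 213 CPM in control. Racgap1, the GTPase-activating subunit of centralspindlin, had 213, 217 and 189 CPM with KCC-07, against 247, 246 and 234 CPM in control. Both lay below control in every library, with -0.32 ± 0.11 and -0.23 ± 0.08 (edgeR adjusted p = 0.108 and 0.118; 0.0265 and 0.0321 with the block). Its kinesin partner Kif23 (-0.07), the RhoA activator gene Ect2 (0.04) and Kif20b (0.04) overlapped, and the microtubule bundler gene Prc1 was above control in every library by a small step (0.08).

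Of the genes read as markers of cycling cells, Top2a had 614, 581 and 583 CPM with KCC-07, against 603, 635 and 714 CPM in control. Mki67, which codes for Ki-67, had 515, 463 and 392.4 CPM with KCC-07, against 394, 497 and 659 CPM in control. Neither passed (-0.14 ± 0.09 and -0.18 ± 0.17; edgeR adjusted p = 0.378 and 0.551), and in Mki67 the control libraries alone spanned a wider range than the difference between groups.

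Over the 45 genes every 95% interval of the KCC-07 difference lay between -0.76 and 0.69, so a 2-fold change of any member is outside its interval. Without control replicate 3, 8 members passed as lower and 2 as higher (6.07% lower and 7.79% higher of all genes). Fitted on the 6 KCC-07 and control libraries alone, 0 members passed in edgeR, without the block (9 at an unadjusted p under 0.05) or with it (11), where 1 (0.00688%) and 412 (2.84%) of 14531 genes did. The calls were thus made only with the siRNA libraries in the fit, and the reason was not tested. Leaving out libraries in turn, Anln passed each time, Nek2 was lost without control replicate 1 (edgeR adjusted p = 0.0813) and Ccna2 without control replicate 1 or 2 (up to 0.0947). Pttg1 and Kif22 were each lost in 4 of 6 cases (up to 0.0805 and 0.0822), without KCC-07 replicate 3, control replicate 1 or control replicate 2, and without KCC-07 replicate 1 for Pttg1 and 2 for Kif22. Epithelial markers moved in the same comparison: 5 of the 8 rose, with summed levels of 1804 to 1893 CPM in KCC-07 and 1549 to 1734 CPM in control. The sum of 8 stromal markers was 106 to 163 CPM in KCC-07 and 190.3 to 221.5 CPM in control, mostly Pdgfra and Col1a1, with Thy1 at 0 in all libraries. The part of these shifts in the result was not tested.

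**Figure D3:**
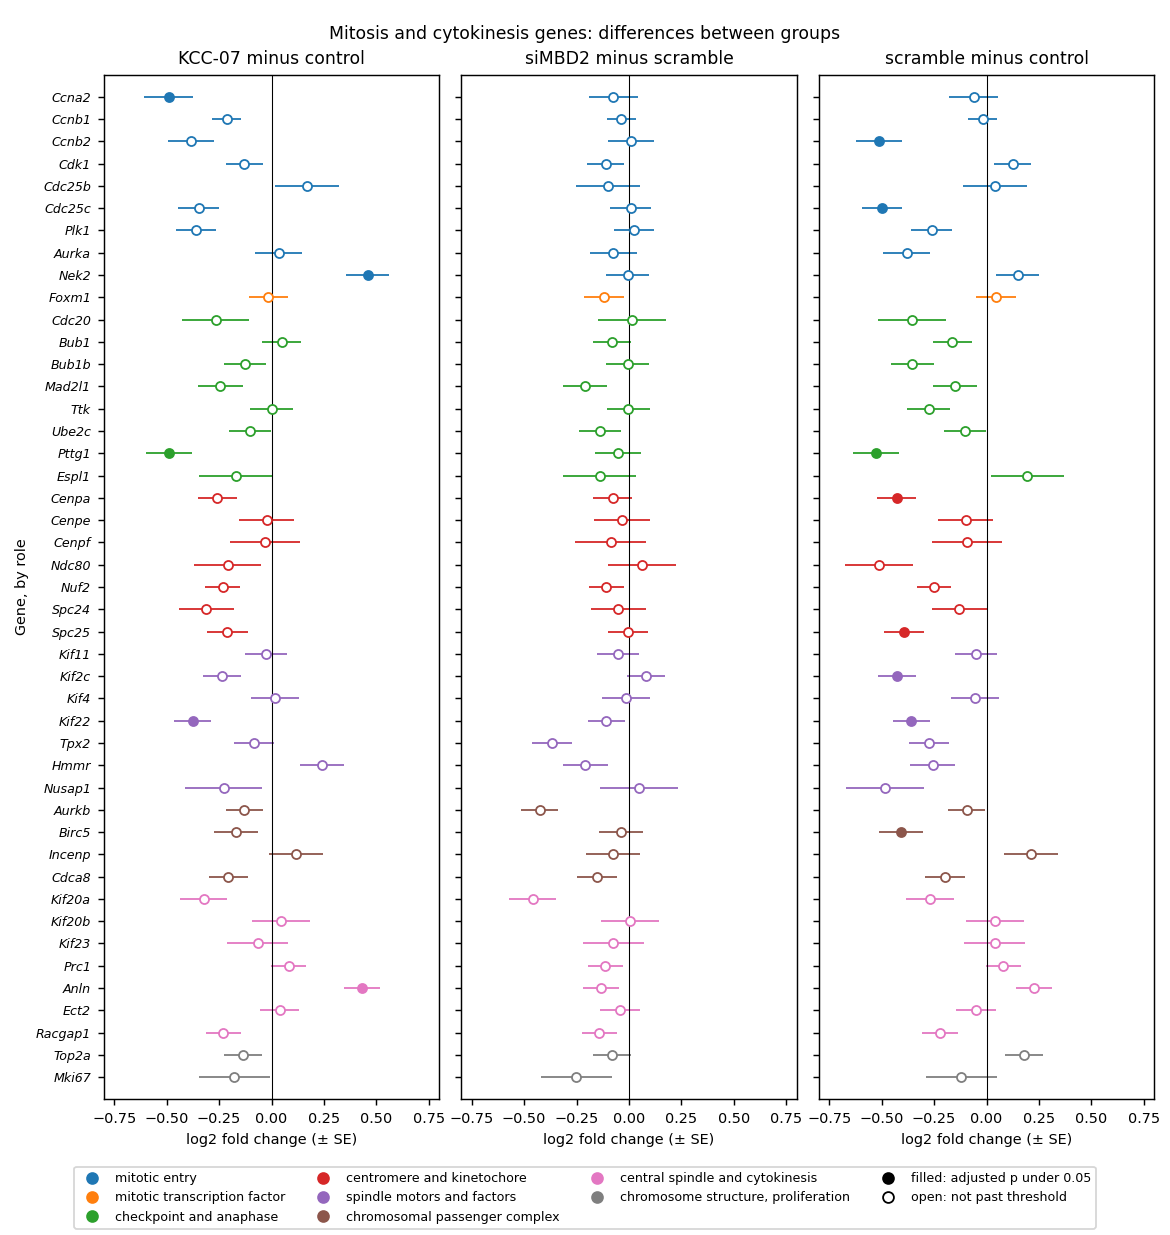
Log2 fold change of each of the 45 genes (points) with its standard error (bars) for KCC-07 minus control, siMBD2 minus scramble and scramble minus control, coloured by role; filled points passed an adjusted p of 0.05 over all genes. Filled points are 5 in the first panel, 0 in the second and 8 in the third.

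In the fit of all 12 libraries, knockdown of Mbd2 moved none of the 45 genes past the threshold. Overall 6 of the 14935 genes passed (0.0402%, all lower, Mbd2 among them), and 112 (0.75%) with the replicate block, again with no member. Among the members 3 (6.67%) had an unadjusted p under 0.05, against 786 of the 14935 genes. The DESeq2 Wald test called 2 of 45 (Aurkb and Kif20a, both lower), against 0.408% of all genes called lower by it. Of the 45 members, 37 were below 0, with a median of -0.08, against 0.0035 over all genes. In 9 members (20%) every siMBD2 library was below every scramble library, against 11.6% of all genes, and in none were all above, against 10.3%. The result depends on the libraries fitted. With the 6 siRNA libraries alone, 0 members passed without the block and 14 passed as lower with it, where 10.2% of 14097 genes did.

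The differences farthest from 0 were in Aurkb, Kif20a and Tpx2, named here after their values were seen. Aurkb, the kinase of the passenger complex, had 60.7, 67.7 and 55.8 CPM in siMBD2, against 85.1, 79.7 and 82.6 CPM in scramble. Kif20a, which moves that kinase to the midzone, had 140.2, 138 and 113 CPM in siMBD2, against 184, 186 and 167 CPM in scramble. Tpx2, the microtubule nucleator that activates Aurora A, had 212, 201 and 174 CPM in siMBD2, against 259, 258 and 241 CPM in scramble. In all 3 genes the highest siMBD2 library was below the lowest scramble library, and replicate 3 was the lowest of the siMBD2 libraries. The log2 fold changes were -0.43 ± 0.09 for Aurkb, -0.46 ± 0.11 for Kif20a and -0.37 ± 0.10 for Tpx2 (edgeR adjusted p = 0.174, 0.347 and 0.390; 0.0564, 0.0599 and 0.0839 with the block). Other subunits of the passenger complex had smaller differences: Cdca8 had 74.3, 80.5 and 70.8 CPM in siMBD2, against 84.3, 84.6 and 82.1 CPM in scramble (-0.15 ± 0.09), and Birc5 had 239.8, 246 and 228 CPM, against 249, 249.6 and 234 CPM (-0.04 ± 0.11).

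None of the 5 members called with KCC-07 passed after the knockdown. Ccna2 had 316, 313 and 278 CPM in siMBD2, against 327, 319 and 310.0 CPM in scramble (-0.08 ± 0.12, 95% interval -0.34 to 0.19). Nek2 had 114, 119 and 114 CPM in siMBD2, against 116, 117 and 117 CPM in scramble (-0.01 ± 0.10, interval -0.24 to 0.23). Pttg1 had 52.0, 56.3 and 62.2 CPM in siMBD2, against 57.0, 59.6 and 60.1 CPM in scramble (-0.05 ± 0.11, interval -0.30 to 0.20). Their groups overlapped, and so did those of Kif22 and Anln. Kif22 had 83.5, 80.8 and 71.3 CPM in siMBD2, against 87.7, 84.8 and 81.4 CPM in scramble (-0.11 ± 0.09), and Anln had 269, 254 and 236 CPM, against 282, 283 and 268 CPM (-0.13 ± 0.09, interval -0.33 to 0.07). Within pairs of the same replicate number the log2 ratio of siMBD2 to scramble was below 0 each time for both, at -0.07, -0.07 and -0.19 for Kif22 and -0.07, -0.16 and -0.18 for Anln, and Anln passed as lower when the 6 siRNA libraries were fitted alone with the block.

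Members that separated the siRNA groups with small differences included Foxm1, with 166, 163 and 160.4 CPM in siMBD2 against 179, 178 and 174 CPM in scramble (-0.12 ± 0.09), and Mki67, with 426, 429.7 and 342 CPM against 481, 495 and 449 CPM (-0.25 ± 0.17). Cdk1 (-0.11), Cdc25b (-0.10), Mad2l1 (-0.21) and Cdca8 were the others, beside Aurkb, Kif20a and Tpx2. Top2a, with 742, 711 and 637 CPM in siMBD2 against 755, 761 and 696 CPM in scramble, overlapped (-0.08 ± 0.09). The siMBD2 replicate 3 was low for most members, and the median over the members was -0.05 in pair 1, -0.06 in pair 2 and -0.14 in pair 3. Without siMBD2 replicate 3 it was -0.02. Fitted on the 6 siRNA libraries alone with the block, 14 members passed as lower, where 10.2% of 14097 genes did: Cdk1, Foxm1, Mad2l1, Ube2c, Espl1, Tpx2, Hmmr, Aurkb, Cdca8, Kif20a, Prc1, Anln, Racgap1 and Mki67.

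**Figure D4:**
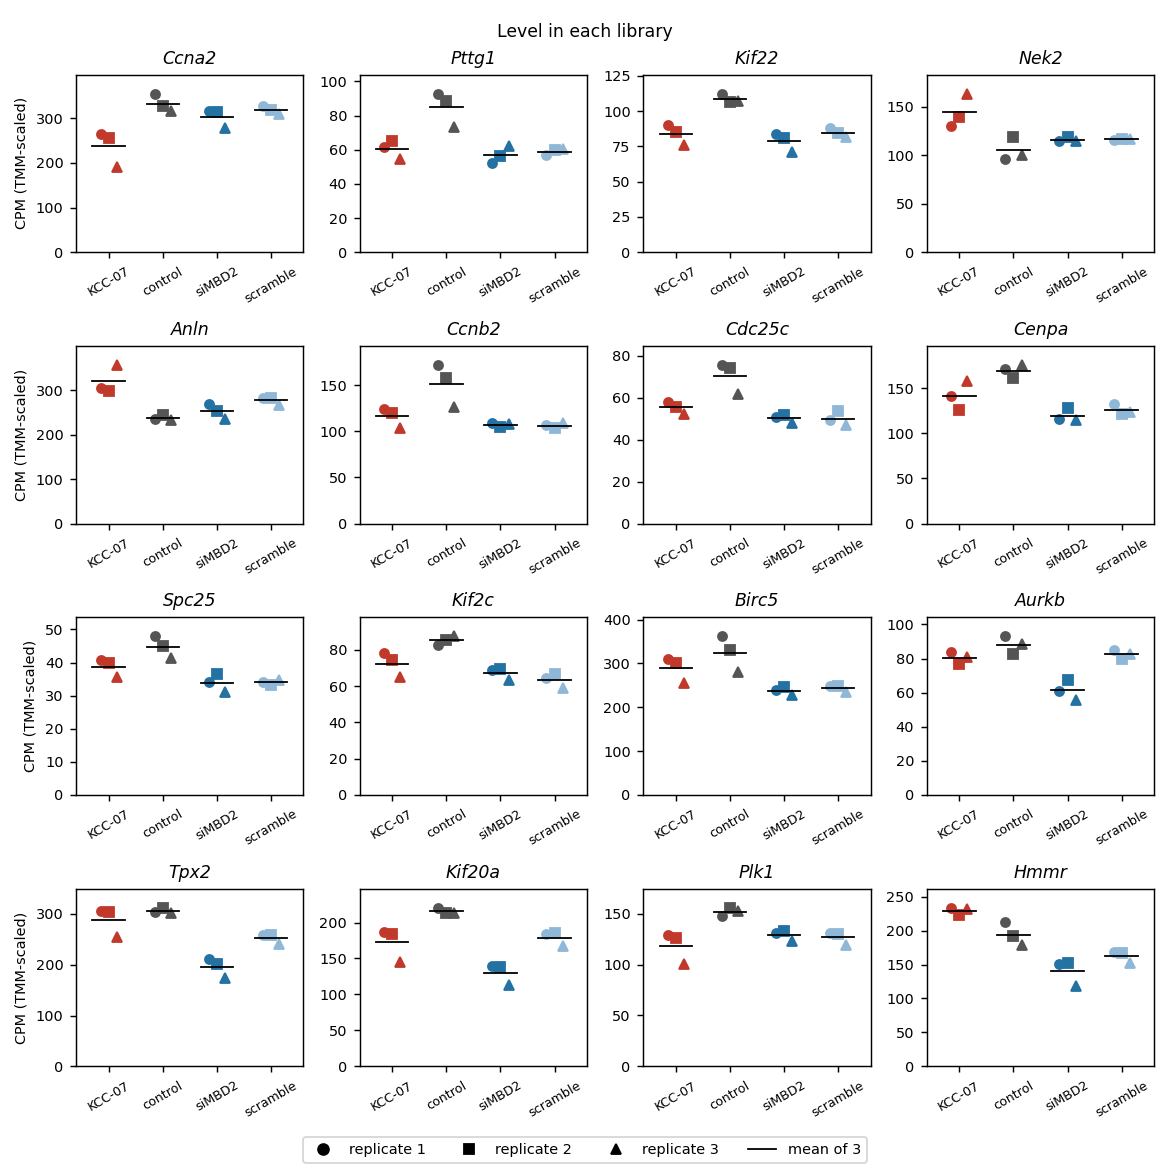
Level in each library (TMM-scaled CPM, y axes start at 0) for 16 of the genes in KCC-07, control, siMBD2 and scramble cells; circles, squares and triangles are replicates 1, 2 and 3 and the line is the mean of 3. Ccna2 and Plk1 are lower and Nek2 and Anln higher with KCC-07 than in control, Aurkb, Tpx2 and Kif20a are lower with siMBD2 than with scramble, and in Ccnb2, Cdc25c, Pttg1 and Cenpa both siRNA groups lie below control.

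Set against each other, the effect of KCC-07 over control minus the effect of siMBD2 over scramble passed for 98 of the 14935 genes (0.656%) and for 0 members. An unadjusted p under 0.05 was found in 10 members (22.2%), against 2174 of the 14935 genes. Anln came closest, with a difference of 0.57 ± 0.12 (edgeR adjusted p = 0.0670), and DESeq2 called it (and 2.7% of all genes above 0). With the block 6.9% of all genes passed, and 4 members: Anln and Hmmr above 0 (4.44%, against 4.65% of all genes) and Ccnb2 and Pttg1 below (4.44%, against 2.24%). The block differences were 0.56 for Anln (edgeR adjusted p = 0.0251), 0.46 for Hmmr (0.0445), -0.39 for Ccnb2 (0.0432) and -0.43 for Pttg1 (0.0403). In Hmmr the 2 effects had opposite signs: 151, 153 and 118 CPM in siMBD2, against 168, 167 and 152 CPM in scramble (-0.21 ± 0.11), beside the higher level with KCC-07. For Ccnb2 the siRNA difference was near 0, with 109, 104 and 107 CPM in siMBD2 against 106, 103 and 109 CPM in scramble. Nek2 differed by 0.46 ± 0.14 (edgeR adjusted p = 0.163; 0.0673 with the block) and Ccna2 by -0.41 ± 0.17 (0.282; 0.0684), neither past the threshold.

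Scramble siRNA cells had lower levels of several of these genes than control cells. In scramble, 8 members fell and 0 rose: the entry genes Ccnb2 and Cdc25c, Pttg1, the kinetochore genes Cenpa and Spc25, the kinesin genes Kif2c and Kif22, and Birc5. That is 17.8% of the members lower, against 4.08% lower and 4.71% higher of all genes (8.79% in either direction). An unadjusted p under 0.05 was found in 21 members (46.7%), against 4062 of the 14935 genes. The median was -0.15, with 34 of 45 below 0, against -0.03 over all genes. Every scramble library was below every control library in 22 members (48.9%), against 16.8% of all genes, and above in 1 (2.22%), against 16.4%. These libraries belong to different arms of the study, whose handling beyond the siRNA is not given in the sources used here, so an effect of transfection and a difference between the arms cannot be told apart. The control libraries here are those of the KCC-07 comparison, so the values of the 2 comparisons are not independent. Marker genes moved here too: 2 of the 8 epithelial markers rose and 1 fell, with summed levels of 1834 to 1955 CPM in scramble and 1549 to 1734 CPM in control. Of the 8 stromal markers 1 fell, with sums of 139 to 142 CPM in scramble and 190.3 to 221.5 CPM in control. Their part in the result was not tested.

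Ccnb2 (chr9:70407692-70421547) had 106, 103 and 109 CPM in scramble, against 172, 157 and 126 CPM in control, and Cdc25c had 49.3, 53.4 and 46.9 CPM, against 75.5, 74.0 and 61.7 CPM. Pttg1 had 57.0, 59.6 and 60.1 CPM in scramble, against 92.8, 88.6 and 73.1 CPM in control. The scramble libraries of these 3 genes lay closely together and below control, while control replicate 3 was the lowest control each time. They fell by log2 fold changes of -0.51 ± 0.11, -0.50 ± 0.10 and -0.53 ± 0.11 (edgeR adjusted p = 0.0178, 0.0111 and 0.0153). For the same genes KCC-07 over control gave -0.39, -0.35 and -0.49.

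At the centromere and kinetochore, Cenpa (chr5:30666777-30674830) had 133, 121 and 124 CPM in scramble, against 172, 161 and 176 CPM in control. Spc25 (chr2:69193895-69206194) had 34.2, 33.1 and 34.8 CPM in scramble, against 47.9, 45.03 and 41.4 CPM in control. They did not overlap and fell by -0.43 ± 0.09 and -0.40 ± 0.10 (edgeR adjusted p = 0.0185 and 0.0284). Kif2c (chr4:117159639-117182639) had 64.6, 66.9 and 59.1 CPM in scramble, against 82.9, 85.7 and 87.4 CPM in control, and Kif22 had 87.7, 84.8 and 81.4 CPM, against 112, 107 and 107 CPM. Birc5 (chr11:117849251-117855743) had 249, 249.6 and 234 CPM in scramble, against 362, 330.2 and 281 CPM in control. Again no scramble library reached a control library, with log2 fold changes of -0.43 ± 0.09, -0.36 ± 0.09 and -0.41 ± 0.11 (edgeR adjusted p = 0.0168, 0.0295 and 0.0351).

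With a block shared by all groups 14 members passed as lower (31.1%, against 6.42% of all genes) and 0 as higher (against 7.39%), the 8 above and 6 more. Among them Aurka had 108, 107 and 88.4 CPM in scramble, against 143, 136 and 116 CPM in control (-0.38 ± 0.11; block adjusted p = 0.0375, edgeR). Bub1b had 124, 122 and 121 CPM in scramble, against 138, 155 and 174 CPM in control (-0.35 ± 0.10; 0.0442). Ndc80 had 42.8, 45.9 and 41.7 CPM in scramble, against 70.0, 64.5 and 51.8 CPM in control (-0.51 ± 0.16; 0.0166). All 3 separated the groups, as did the other 3, Cdc20, Tpx2 and Nusap1. Cdc20 had 124, 119 and 109 CPM in scramble, against 153, 163 and 135 CPM in control (-0.36 ± 0.16; 0.0493). Tpx2 had 259, 258 and 241 CPM in scramble, against 303, 312 and 301 CPM in control (-0.27 ± 0.10; 0.0419), and Nusap1 had 76.3, 72.8 and 65.0 CPM, against 115, 107 and 77.8 CPM (-0.48 ± 0.19; 0.0147). Whether the arms share batches is not given. The batch tag gives the third libraries of all groups the same number, but the library names number those of KCC-07 and control as 4 and those of the siRNA groups as 3, so this block is less certain than that within an arm.

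Ccna2 was not among them, with 327, 319 and 310.0 CPM in scramble against 355, 327 and 315 CPM in control (-0.06 ± 0.12, edgeR adjusted p = 0.771), nor was Ccnb1, with 177, 173 and 171 CPM against 184, 178 and 166 CPM (-0.02 ± 0.07). Anln was the member with every scramble library above control, at 282, 283 and 268 CPM against 235, 244 and 233 CPM (0.23 ± 0.09, edgeR adjusted p = 0.120). Cdk1 (0.12), Incenp (0.21), Espl1 (0.19), Top2a (0.18) and Nek2 (0.15) stood above 0 without passing. The fit of the 6 libraries alone called 7 members lower, all but Birc5 of the 8 (2.87% of all genes), and with the block 0 (1.1%; 18 members at an unadjusted p under 0.05). Leaving out libraries in turn, each of the 8 was lost at least 2 times, Cdc25c least often (without scramble replicate 1 or 3, edgeR adjusted p up to 0.0592), and Spc25, Kif22 and Birc5 passed only without control replicate 3 (otherwise up to 0.115, 0.107 and 0.109). Ccnb2 and Pttg1 were lost without replicate 1 or 2 of either group (up to 0.0787 and 0.0759), Cenpa without control replicate 1 or any scramble library (up to 0.0927), and Kif2c without control replicate 2 or any scramble library (up to 0.0696). Once control replicate 3 was left out, 12 members passed as lower and 2, Espl1 and Incenp, as higher (9.49% and 10.9% of all genes).

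The control libraries, which enter both the KCC-07 and the scramble comparison, differed among themselves along transcript length. The ratio of control replicate 3 to control replicate 1 ran from -0.56 to 0.86 on the log2 scale over the 45 genes, and its correlation with the log2 length of the longest coding transcript was 0.597 across these genes. Of the 10 longest members 8 were above 0 in this ratio, and of the 10 shortest 1 was. Cenpf, an outer kinetochore protein gene with a transcript of 11130 bases, had 116, 151 and 211 CPM in the 3 control libraries. Mki67, at 10061 bases, had 394, 497 and 659 CPM in them, and Cenpe, the kinetochore motor gene at 7910 bases, had 121, 147 and 188 CPM. Mad2l1, the fourth longest at 7557 bases, went against this, with 163, 133 and 119 CPM. The short genes Ccnb2 (1531 bases) and Pttg1 (1674 bases) were lowest in control replicate 3, as given above. The same correlation was 0.085 for KCC-07, -0.48 for siMBD2 and -0.208 for scramble. For replicate 2 over replicate 1 it was 0.294 in control, -0.464 in KCC-07, -0.372 in siMBD2 and 0.121 in scramble. Differences between replicates along length were thus not particular to control. Genes of 1 table share libraries and composition, so these are descriptions across 45 genes and not tests, and their part in the results was not tested.

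**Figure D5:**
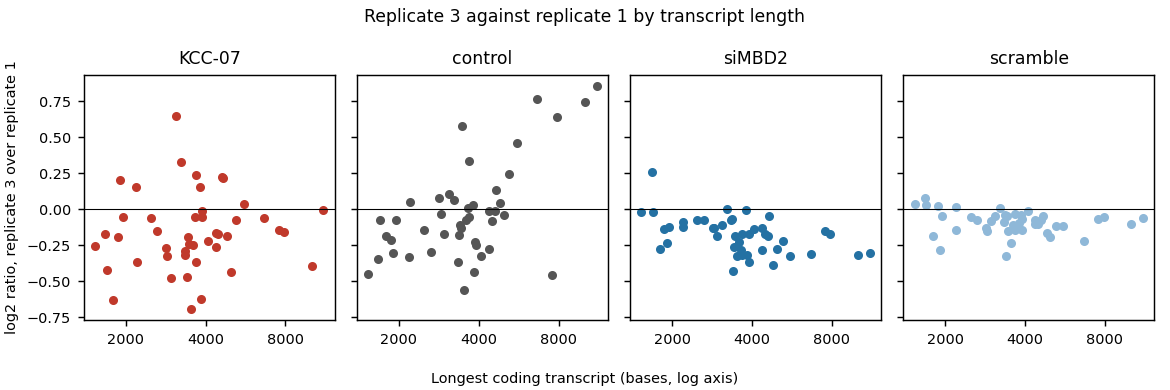
Log2 ratio of replicate 3 over replicate 1 for each of the 45 genes against the length of its longest coding transcript in bases (log axis), in KCC-07, control, siMBD2 and scramble. In control the ratio climbs with length (correlation 0.597), which it does not in KCC-07 (0.085), siMBD2 (-0.48) or scramble (-0.208).

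Other genes of the same machinery, 131 listed by textbook role, are given beside the members. They gave 129 tested entries, in which Sept2 is counted under each of its separate identifiers. Of these, 3 rose and 3 fell with KCC-07, with a median of -0.02; the block gave 15 higher and 14 lower. These shares, 2.33% each way and 11.6% and 10.9% with the block, are near those of all genes (3.58% higher and 2.08% lower, and 12.8% and 9% with the block). DESeq2 called 6 of the 129 higher and 10 lower, against 7.26% higher and 5.28% lower of all genes. The rises were in Rock2, the kinase that activates furrow myosin (169, 173 and 227 CPM with KCC-07, against 109, 129 and 136 CPM in control), in the microtubule end-binding gene Clasp2 (62.2, 63.8 and 79.5 CPM against 43.6, 47.5 and 52.5 CPM) and in the abscission gene Chmp4c (52.5, 54.9 and 53.9 CPM against 37.2, 44.2 and 42.5 CPM). Their log2 fold changes were 0.61 ± 0.12, 0.52 ± 0.13 and 0.38 ± 0.09 (edgeR adjusted p = 0.0157, 0.0381 and 0.0334). The falls were in the APC/C subunit gene Cdc26 (-0.43 ± 0.08, edgeR adjusted p = 0.0139), in Arpp19, an inhibitor of the phosphatase that opposes CDK1 (-0.41 ± 0.09, 0.0225), and in the cohesin gene Rad21 (-0.34 ± 0.09, 0.0426).

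After the knockdown 0 of these 129 passed in edgeR (1, lower, by DESeq2, which called 0.408% of all genes lower), with a median of -0.05. An unadjusted p under 0.05 was found in 7 of them (5.43%), against 786 of the 14935 genes. In scramble against control 5 rose and 7 fell (3.88% and 5.43%, against 4.71% and 4.08% of all genes). The kinase gene Wee1, which restrains CDK1, rose (73.7, 72.8 and 76.5 CPM in scramble, against 42.2, 45.7 and 49.7 CPM in control; 0.70 ± 0.09, edgeR adjusted p = 0.00282), as did Cdc25a, Ncapg2, Rock2 and Zwint by 0.61, 0.53, 0.50 and 0.46. The falls were in Oip5 (-0.64), which shares exonic bases with Nusap1, in Cdkn3 (-0.61), Sept9 (-0.57), Dlgap5 (-0.47), Cks2 (-0.41), Ckap2l (-0.36) and Cdc26 (-0.34).

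A list of 41 genes of S phase and DNA replication was set beside them. With KCC-07, 0 of them passed (0 by DESeq2), with a median of -0.17, beside -0.14 for the mitotic genes. With the block 8 passed as lower (19.5%, against 9% of all genes). An unadjusted p under 0.05 was found in 4 (9.76%), against 3744 of the 14935 genes. In 2 of the 41 (4.88%) every KCC-07 library was below every control library, against 10.6% of all genes and 28.9% of the mitotic genes. Their summed level was 5272, 5146 and 3737 CPM with KCC-07, lowest in replicate 3, against 5496, 5389.9 and 4902 CPM in control. After the knockdown 0 passed in edgeR, and DESeq2 called 2 lower, where it called 0.408% of all genes lower. An unadjusted p under 0.05 was found in 3 (7.32%), against 786 of the 14935 genes. But 39 of 41 (95.1%) were below 0 (median -0.16), against 49.0% of all genes. In 26 (63.4%) every siMBD2 library was below every scramble library, against 11.6% of all genes. In scramble against control, where the mitotic genes stood lower, the replication genes stood higher, with a median of 0.13 and 32 of 41 above 0. Over all genes the median was -0.03, with 7004 of 14935 above 0. In that comparison 3 replication genes passed as higher (7.32%) and 2 as lower (4.88%), against 4.71% and 4.08% of all genes. There the cyclin E genes Ccne1 (39.4, 42.3 and 40.7 CPM in scramble, against 27.5, 20.6 and 32.8 CPM in control) and Ccne2 (74.5, 76.6 and 74.1 CPM against 44.9, 40.1 and 55.3 CPM) and the ribonucleotide reductase gene Rrm2 rose by 0.60 ± 0.15, 0.68 ± 0.12 and 0.33 ± 0.08, and Tk1 and Gins4 fell by -0.48 ± 0.12 and -0.49 ± 0.13, all with edgeR adjusted p between 0.00933 and 0.0402. Of 12 genes of the MuvB complex and its partners, 0 passed with KCC-07 in edgeR. There 4 had an unadjusted p under 0.05, against 3744 of the 14935 genes, and DESeq2 called 1 lower, against 5.28% of all genes. After the knockdown 0 passed in edgeR or DESeq2, and 1 had an unadjusted p under 0.05, against 786 of the 14935 genes. In scramble against control 1 passed as higher and 1 as lower, against 4.71% and 4.08% of all genes. Lin54, the subunit that binds the CHR, rose by 0.52 ± 0.14 and Rbl2, a pocket protein of the repressive form, fell by -0.85 ± 0.15 (edgeR adjusted p = 0.0415 and 0.00936).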

How the data were processed

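Per the labels' protocols, RNA of PYMT-R221A cells was purified on columns, selected for polyadenylated transcripts and read on a NovaSeq X. The deposited table held the authors' whole-number read counts for 55335 genes, without normalization. DRAGEN, DESeq2 1.44.0 and the build mm10 (GRCm38.p6) are named, without roles, per the submitters' processing notes. The annotation, the strand setting and the treatment of multi-mapped reads are not given in the sources used here. Groups and replicate numbers came from the labels, and columns were matched to libraries by name.

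The 45 genes, their roles and the comparison lists were chosen with earlier results of these data known, so no test of a list is given and counts stand beside those over all genes. The filter filterByExpr of edgeR 4.0.16, run in R 4.3.3 with a minimum count of 10 and a minimum total of 15, left 14935 genes. TMM scaling was followed by glmQLFit and glmQLFTest, in a model that holds a mean for each of the 4 groups and uses all 12 libraries (8 residual degrees of freedom). Adjusted p-values are Benjamini-Hochberg values over all genes of a comparison, and a gene passed at an adjusted p under 0.05. Standard errors are the absolute log2 fold change over the square root of the F statistic, and 95% intervals use the residual degrees of freedom. Exact permutation tests were not used, since 3 against 3 libraries give no p below 0.1. No 2 libraries held identical values. The tests were tried on simulated data before use.

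The labels give a batch tag that names the biological replicate, which pairs libraries within an arm. Deviations of same-numbered libraries correlated across genes with r = 0.27, 0.28 and 0.48 between KCC-07 and control, with 0.09, 0.15 and 0.42 between siMBD2 and scramble, and with 0.07, 0.02 and 0.13 between scramble and control. The block within arms left 4 residual degrees of freedom and that shared by all groups 6. Settings tried besides were size factors of DESeq2, no filter, a filter of at least 1 CPM in 3 libraries, the block, the libraries of a comparison alone, DESeq2 1.42.0, a threshold of 0.01, and leaving out each library or the libraries of batch 3. Values in every library are given for members past the threshold in any comparison with or without the block and for the 2 members of each role with the smallest adjusted p for KCC-07. From each list up to 4 genes past the threshold are named. Gene positions and overlaps came from GENCODE M21 (54587 identifiers found), with near-identical copies at 95% identity over 50% of the length, and promoters from RefSeq.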

Additional observations from a re-analysis of the deposited data

Results flagged for a closer look

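In 4 of the 45 genes the effect of KCC-07 over control differed from that of siMBD2 over scramble when the replicate number was a block, a test of the difference itself. This is 4.44% of them in each direction, against 4.65% above 0 and 2.24% below 0 of all genes, so the share above 0 is near the background. The difference of the log2 fold changes was 0.56 for Anln (edgeR adjusted p = 0.0251), 0.46 for Hmmr (0.0445), -0.39 for Ccnb2 (0.0432) and -0.43 for Pttg1 (0.0403). Without the block none of the 4 passed, at edgeR adjusted p of 0.0670 for Anln, 0.198 for Hmmr, 0.274 for Ccnb2 and 0.220 for Pttg1. In Hmmr all 3 pairs were higher with KCC-07 and all 3 pairs lower with siMBD2, by 0.14, 0.22 and 0.37 and by -0.15, -0.13 and -0.37 on the log2 scale. In Anln the pairs gave 0.38, 0.29 and 0.62 with KCC-07 and -0.07, -0.16 and -0.18 with siMBD2.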

How the results depend on the processing

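Of 288 gene values under other settings, over the 37 values for single genes, 211 kept their direction and their side of the threshold, 22 fell out of it, 55 came into it and 0 changed direction; over the 246 values that leave out a library these were 192, 44, 10 and 0. For KCC-07 over control the 844 genes called became 3251 with the replicate block, 1 with the 6 libraries alone, 412 with these and the block, 1874 with DESeq2, 145 at a threshold of 0.01 and 3832 without the libraries of batch 3. Members called lower were 13 with the block, 0 with the 6 libraries with or without it, 7 with DESeq2, 0 at 0.01 and 13 without batch 3, and members called higher were 0 with the 6 libraries with or without the block and 0 at 0.01. For siMBD2 over scramble the 6 genes became 112 with the block, 177 with the 6 libraries alone, 2790 with these and the block, 85 with DESeq2, 3 at 0.01 and 162 without batch 3, and members called lower were 14 with the 6 libraries and the block, 2 with DESeq2 and 2 without batch 3. For the difference of the effects the 98 genes became 176 without a filter, 1030 with the block, 617 with DESeq2, 10 at 0.01 and 1583 without batch 3. Its members called higher were 2 with the block, 1 with DESeq2 and 2 without batch 3, those called lower 2 with the block and 4 without batch 3, and their median was 0.00040 with the block. For scramble over control the 1313 genes became 2062 with the block, 311 with the 6 libraries and the block, 2299 with DESeq2, 267 at 0.01 and 6164 without batch 3. Members called lower were 14 with the block, 0 with the 6 libraries and the block, 0 at 0.01 and 20 without batch 3, and 5 were called higher without batch 3.

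Leaving out 1 library gave 384 to 2112 genes, 1 to 2 members higher and 0 to 8 lower for KCC-07, and 2 to 3 genes for siMBD2 with a members' median of -0.12 to -0.020. For the difference of the effects it gave 11 to 320 genes, 0 to 1 members higher and a median of -0.080 to 0.028, and for scramble 293 to 3110 genes, 0 to 2 members higher and 0 to 12 lower. Where a group is left with 2 libraries, these are assumed to vary like the other groups. The cause of these shifts was not tested. With 3 libraries a group, changes of the size seen here lie near what the tests could call, and the replicates differ more than counting noise.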
